A study of Bos taurus and Bos grunniens and Bubalus bubalis with 15 samples.

Results

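IFI6, MX1, MX2, ISG15 and IFITM1 are 5 interferon-induced genes. They were followed in the back muscle of cattle, yak and water buffalo. All probe sets whose platform gene symbol is one of these names were taken, which gave 6 of the 24016 non-control probe sets on a bovine expression array: 1 each for IFI6, MX1, MX2 and ISG15 and 2 for IFITM1. Interferons are secreted proteins that warn cells of virus. They bind receptors on the cell surface, the kinases JAK1 and TYK2 are activated inside the cell, and transcription factors that include STAT2 and IRF9 then switch on a large set of target genes. The products of those targets block steps of the viral life cycle, and some are also present at low levels in tissue with no infection.

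The tissue was longissimus dorsi, which runs along the spine, frozen when the animals were slaughtered at 36 months of age. Qinchuan cattle, a Chinese breed, gave 3 intact males, 3 castrated males and 3 females. Qinghai yak and Guangxi buffalo gave 3 animals each, making 5 groups and 15 arrays. The cattle groups were of like genetic background, born within 30 days of each other and kept under the same conditions. No agent or infection is named for any group, and the labels name no sex for the yak and buffalo. The array carries cattle sequence, so a difference in level and a difference in binding cannot be told apart between species. In whole muscle, fewer cells of a type and less RNA per cell cannot be told apart either. The replicates are labelled as biological, with 1 array each.

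Values are hybridisation intensities on a linear scale, and precision is limited by the number of arrays. Differences are log2 fold changes on the log2(intensity + 16) scale, which understates the change of dim probe sets. They were tested with limma over the 14409 probe sets whose mean log2 value lay above 6.42. Adjusted p-values are Benjamini-Hochberg values over those probe sets, two-sided, with a threshold of 0.05. The median log2 value of an array was 6.71 to 6.81. Muscle was well represented in every group: the summed intensity of 11 skeletal muscle markers ran from 118701 to 151441 over the 15 arrays. The minimum came from intact male 1, whereas intact males 2 and 3 had 147389 and 143709. Castrated males spanned 145227 to 151441 and females 139275 to 149681. Yak (127267 to 137752) and buffalo (121258 to 127530) lay wholly below both of those groups. The part of these muscle sums in the contrasts was not tested. The ratio of 3' to 5' actin probe sets, which climbs as RNA degrades, spanned 1.17 to 1.48 among intact males, 1.22 to 1.33 among the other cattle, 1.49 to 1.93 among yak and 1.42 to 1.73 among buffalo; its part in the species contrasts was not tested.

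Of the 6 probe sets, 4 were bright enough to test: IFI6, MX1, ISG15 and the brighter of the pair for IFITM1. MX2 had a mean log2 value of 6.07 and the dimmer IFITM1 probe set 5.06, both below the limit. MX1, at 6.80, passed only because intact males and females were high, since its group means were 6.26 in castrated males, 5.56 in yak and 5.77 in buffalo. Counts over the 4 that passed are therefore a description.

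IFI6 encodes a small mitochondrial protein that protects cells from programmed death, and it varied more than any other of these genes between groups. Intact males 1, 2 and 3 read 1140.2, 2388 and 1131. Castrated males read 467, 105 and 122, and females 101, 190.1 and 209. Yak read 76.1, 84.4 and 94.6, and buffalo 233, 127 and 93.3. All 3 intact males stood above every other animal. Castrated male 1 came next, and the remaining 11 animals lay between 76.1 and 233.

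MX1 encodes a dynamin-like GTPase that traps viral nucleocapsids. Its intensity was 248, 509 and 868 in intact males 1, 2 and 3, and 90.2, 46.2 and 52.8 in castrated males. Females read 62.5, 259 and 228, so that female 1 stood among the castrated males and female 2 just above the lowest intact male. Yak read 29.3, 34.1 and 30.5, and buffalo 70.0, 25.5 and 29.2. The 3 yak had the smallest spread of any group, with an SD of 2.51, and every yak lay below every cattle array. The yak values were dim, with a mean log2 value of 5.56, so a small spread there need not mean that the animals were alike.

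ISG15 encodes a ubiquitin-like protein that is attached to other proteins during the interferon response. Intact males read 229.6, 333 and 683, and castrated males 121, 108 and 109. In females the values were 87.3, 225 and 226, again with female 1 far below the rest of its group. Yak read 71.8, 78.4 and 98.1 and buffalo 219, 148 and 139. The castrated males were nearly equal (SD 7.22), whereas the intact males had an SD of 238.

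IFITM1 encodes a membrane protein that hinders the entry of enveloped viruses. On its brighter probe set, intact males read 1076, 1654 and 1284. Castrated males read 891, 661 and 643, and females 605, 802 and 598. Yak read 591, 754 and 758, and buffalo 963, 1073 and 843. The intact males again lay above every other animal, by a small margin over buffalo 2. The dimmer IFITM1 probe set read between 10.9 and 24.9 on all 15 arrays and did not follow the brighter one: its highest group mean was in castrated males (21.3 ± 4.51, SD, n = 3) and intact males averaged 15.7 ± 3.03.

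MX2, the neighbour of MX1 in the RefSeq gene table for assembly ARS-UCD2.0 and a related GTPase, was dim throughout. Intact males read 79.8, 54.8 and 76.4, castrated males 46.5, 42.5 and 43.1, and females 47.6, 49.7 and 38.9. Yak read 46.0, 39.8 and 51.5, and buffalo 57.0, 59.1 and 51.1. Buffalo overlapped with the intact males, who had the highest mean, 70.3 ± 13.5 (SD, n = 3).

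**Figure D1:**
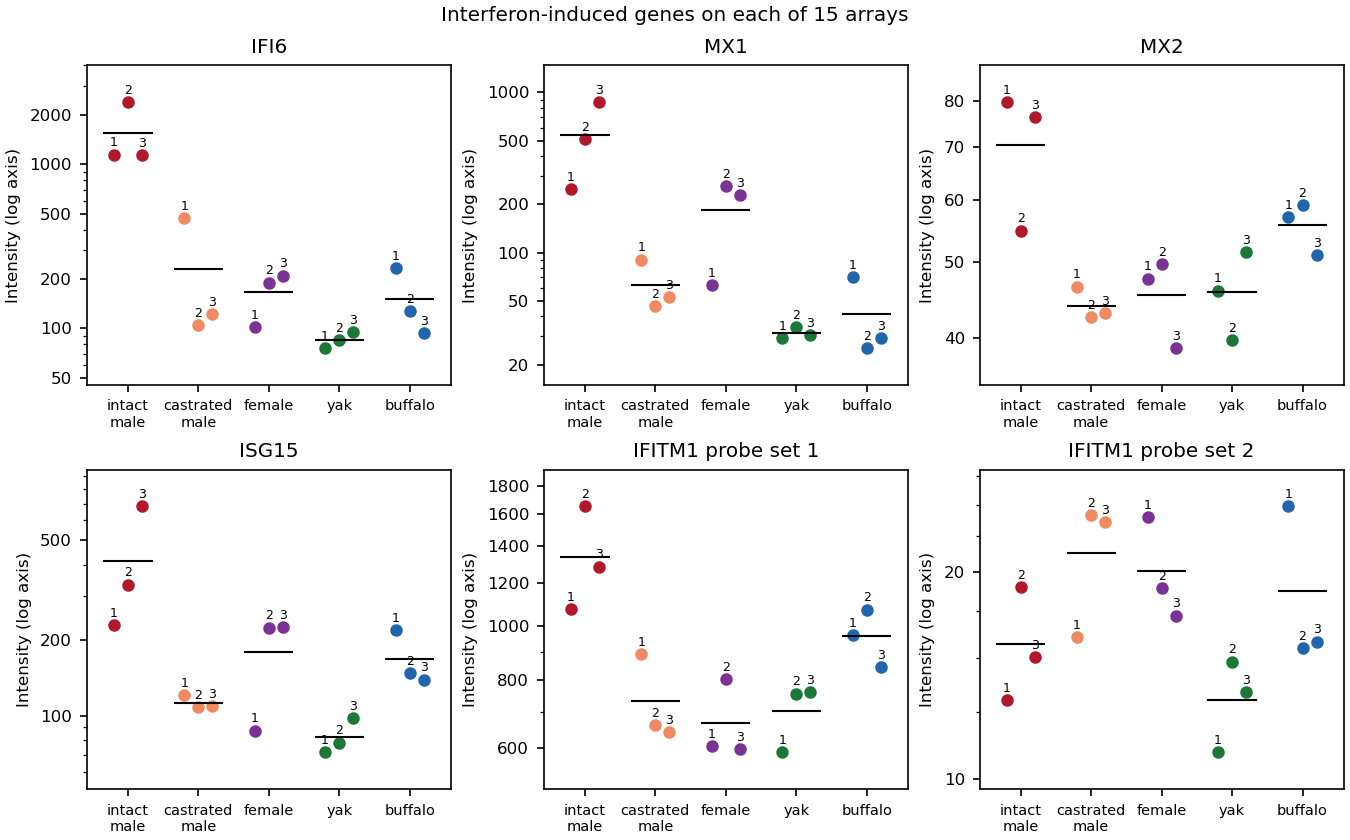
Intensity (log axis) of the 6 probe sets on each of 15 arrays, with points numbered by replicate and a line at each group's mean. For IFI6 and the brighter IFITM1 probe set, all 3 intact males lie above the other 12 animals, and for MX1 and ISG15 female 1 lies far below females 2 and 3.

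The order of the groups differed between genes. For IFI6, the mean log2 levels fell from intact males to castrated males, females, buffalo and yak, and only the first step, of 2.88, had ranges that did not overlap. For MX1 the order was intact males, females, castrated males, buffalo and yak, and every neighbouring pair overlapped. For ISG15 it was intact males, females, buffalo, castrated males and yak, where females and buffalo overlapped and the other neighbours did not. For IFITM1 buffalo came second, clear of the intact males, and the remaining neighbours overlapped down to females, who were lowest.

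The submitters set the cattle groups side by side to find genes that differ with sex and castration. IFI6 was 7.34-fold lower in castrated than in intact males, averaging 231 ± 204 against 1553 ± 723 (log2 fold change -2.88, SE 0.53, limma adjusted p = 0.0387). MX1 was 6.46-fold lower, at 63.1 ± 23.7 against 542 ± 311 (log2 fold change -2.69, SE 0.53, limma adjusted p = 0.0469). Its call rests on the limit on brightness, which MX1 passed through the high groups: with all 24016 probe sets tested it did not pass (limma adjusted p = 0.0517). ISG15 averaged 113 ± 7.22 against 415 ± 238 and did not pass (log2 fold change -1.60, 95% interval -2.52 to -0.69, limma adjusted p = 0.0878), nor did IFITM1 (log2 fold change -0.85, interval -1.32 to -0.38, limma adjusted p = 0.0815). So 2 of the 4 tested fell, where 0.84% of all probe sets tested were called lower. Castrated males lay wholly below intact males for all 4, as for 13.5% of all probe sets tested. The members were chosen with earlier results of these data known, so these counts, and those for females below, are a description. MX2, tested only without the limit on brightness, had a log2 fold change of -0.51 (limma adjusted p = 0.0890).

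These calls were close to the threshold. Of the 9 fits that left out 1 cattle array, 6 lost IFI6 (without intact male 2, castrated male 2 or 3, or any single female; limma adjusted p from 0.0141 to 0.131 over the 9) and 6 lost MX1 (without intact male 2, any single castrated male, or female 2 or 3; adjusted p from 0.0276 to 0.143). The log2 fold change stayed between -3.51 and -2.51 for IFI6 and between -3.15 and -2.28 for MX1.

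IFI6 was also lower in females than in intact males, averaging 167 ± 57.5 (log2 fold change -3.06, SE 0.53, limma adjusted p = 0.0205). IFITM1 fell as well, to 668 ± 115 from 1338 ± 293 (log2 fold change -0.98, SE 0.21, limma adjusted p = 0.0362). MX1, at 183 ± 106, and ISG15, at 179 ± 79.7, did not pass. Their log2 fold changes were -1.51 (95% interval -2.72 to -0.31, limma adjusted p = 0.109) and -1.11 (interval -2.02 to -0.19, limma adjusted p = 0.121). MX1 was thus called in the castrated males and IFITM1 in the females, but the female minus castrated male contrast, which tests that difference, called neither. The 2 calls stood against 3.37% of all probe sets tested that were called lower. Females lay wholly below intact males for IFI6, ISG15 and IFITM1, against 17.4% of probe sets tested. The call of IFI6 was lost without intact male 2 or any single female (adjusted p from 0.00948 to 0.0706 over the 9 fits), and that of IFITM1 without intact male 2, castrated male 2 or 3, or any single female (0.0280 to 0.117). MX2 had a log2 fold change of -0.48 in the fit with no limit on brightness (limma adjusted p = 0.0626).

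Females and castrated males were not separated by any of these genes. IFI6 had a log2 fold change of -0.19 (95% interval -1.38 to 1.00) and IFITM1 of -0.12 (interval -0.60 to 0.35). Both signs turned when castrated male 1 was left out. MX1 was higher in females by 1.18, with an interval of -0.02 to 2.38 (limma adjusted p = 0.660), and ISG15 by 0.50, with an interval of -0.42 to 1.42. In limma, 0 of 4 passed and 0 had an unadjusted p under 0.05. Of all probe sets tested, 0.0208% were called in either direction, and 3.98% were higher and 3.57% lower at an unadjusted p under 0.05. The intervals still allow a several-fold difference in MX1. In the single test for any difference among the 3 cattle groups, IFI6 passed (limma adjusted p = 0.0325) and MX1 (0.0632), IFITM1 (0.0632) and ISG15 (0.107) did not, where 1.96% of all probe sets passed.

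**Figure D2:**
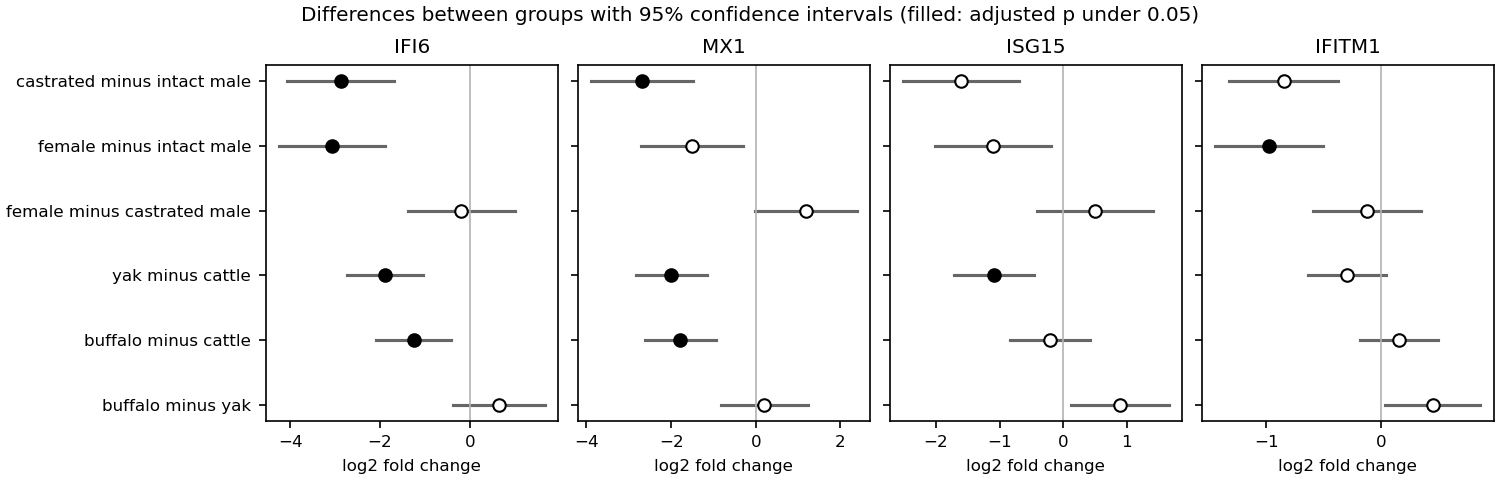
Log2 fold changes of the 4 tested probe sets in 6 contrasts, with 95% confidence intervals from limma and a separate horizontal scale for each gene. Filled points passed at an adjusted p under 0.05: IFI6 in both contrasts with intact males and both species contrasts with cattle, MX1 in 3 contrasts, and ISG15 and IFITM1 in 1 each.

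Macrophages respond strongly to interferon, and their markers were high in the same intact males. The summed intensity of 14 macrophage markers spanned 4729 to 28822 among intact males and 2295 to 3331 among castrated males. It was lower in females (1094 to 2192), yak (1533 to 1666) and buffalo (1195 to 1635), and none of the 14 was at 0 on any array. Of the 13 tested, 0 passed in castrated against intact males (0.84% of all probe sets tested were called lower). At an unadjusted p under 0.05 in limma, 12 were lower there (11.2% of all). In females 7 were called lower than in intact males (3.37% of all). Within the intact males the members differed in how they stood beside this sum. Intact male 1 had by far the highest macrophage sum, 28822, and the lowest MX1, ISG15 and IFITM1 of the 3, but the highest MX2, 79.8, while intact male 3 had the lowest sum, 4729, and the highest MX1 and ISG15. Among other pathway genes, IFI30 (522, 248 and 115 in intact males 1, 2 and 3), IFI16 (668, 469 and 474), IRF3 (419, 246 and 200.5) and STAT2 (111, 75.5 and 68.9) were highest in intact male 1. Others were not: IRF5 (416, 462 and 301) and STAT3 (828, 848 and 597) were highest in intact male 2. DTX3L was highest in intact male 3, and UBA7 was lowest in intact male 1. These pathway genes were picked after their values were seen and do not stand for the rest. Females 2 and 3 had the lowest sums among cattle, 1369 and 1094, and more MX1 and ISG15 than any single castrated male. Summed markers of T, B and NK cells (15 genes) lay at 1178 to 1473 for intact males, 1076 to 1428 for castrated and 1187 to 1271 for female cattle, which overlap. Only 5 of the 15 were bright enough to test, so these sums say little about such cells. Yak sums were lower than those of females, at 1113 to 1160, and buffalo sums were 1256 to 1476. Endothelial sums (11 genes, 2168 to 3877) overlapped between all groups. Sums of 5 neutrophil and platelet markers were 1317 in intact male 1 alone and 533 and 480 in intact males 2 and 3, the last below castrated male 1 (489). They were 462 to 489 in castrated males, 411 to 454 in females, 366 to 507 in yak and 437 to 693 in buffalo. The part of these cells in the differences was not tested.

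MX1 and ISG15 varied together from animal to animal. Taking each array's log2 value less its group mean, their Pearson correlation over the 15 arrays was 0.93, the highest of the 10 pairs of genes. It was 0.93 over the 12 arrays left without the intact males, a check chosen after seeing the data. Female 1 had the largest deviations of those 12, -1.15 for MX1 and -0.82 for ISG15. It also had the highest macrophage sum of the females, 2192. How far the correlations rest on that animal was not tested. IFI6 and IFITM1 formed the next pair (0.69, and 0.64 without intact males), followed by IFI6 and MX1 (0.58, and 0.76). MX2 followed none of them over 15 arrays, with correlations of -0.17 to 0.03, though it reached 0.50 with IFITM1 without the intact males. These values share the arrays, their scaling and 10 degrees of freedom, and they describe these animals only. Deviations of MX1 and ISG15 ran against the log2 macrophage sum, at -0.80 and -0.79 (-0.84 and -0.78 without intact males). The correlation was weaker for IFI6 (-0.39, and -0.70 without intact males) and IFITM1 (-0.43, and -0.23), and of the other sign for MX2 (0.35, and 0.26).

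The 3 named genes whose deviations were most like each member's were chosen by the same measure from all tested genes with 1 symbol. For MX1 they were FBXO40, a muscle ubiquitin ligase (0.93), UBA7, the enzyme that activates ISG15 for conjugation (0.91), and ATP5F1D, a subunit of ATP synthase (0.91). For ISG15 they were SOD3, FADS2 and SUCLG1 (0.92, 0.91 and 0.91), an extracellular superoxide dismutase, a fatty acid desaturase and a citric acid cycle enzyme. IFI6 was nearest to ETFB and HADHB of fatty acid oxidation (0.92 and 0.90) and to PIR (0.88). IFITM1 was nearest to MYO1C, CRTC1 and RPL32 (0.92, 0.90 and 0.89), and MX2 to EGFL8, ATP5MJ and OPN1LW (0.89, 0.85 and 0.85). These are the highest values of a search over all those genes, so high correlations follow in part from the choice. They are a description, and MX2 was dim throughout. Deviations leave out differences between groups, so a named gene need not follow its member there. FBXO40 ran against MX1 in this respect. Relative to intact males its log2 fold change was 1.78 for females (limma adjusted p = 0.0286) and 1.21 for castrates (adjusted p = 0.115). Those of MX1 were -1.51 and -2.69. UBA7 fell with MX1, by -0.50 and -0.67, and did not pass. Without the intact males OPN1LW fell to 0.64, while EGFL8, the next lowest of the named genes, stood at 0.83. Among the 50 tested pathway genes alone, MX1 was nearest to UBA7, IRF9 (0.83) and RSAD2 (0.79), and ISG15 to RSAD2 (0.91), EPSTI1 (0.86) and UBA7 (0.83).

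**Figure D3:**
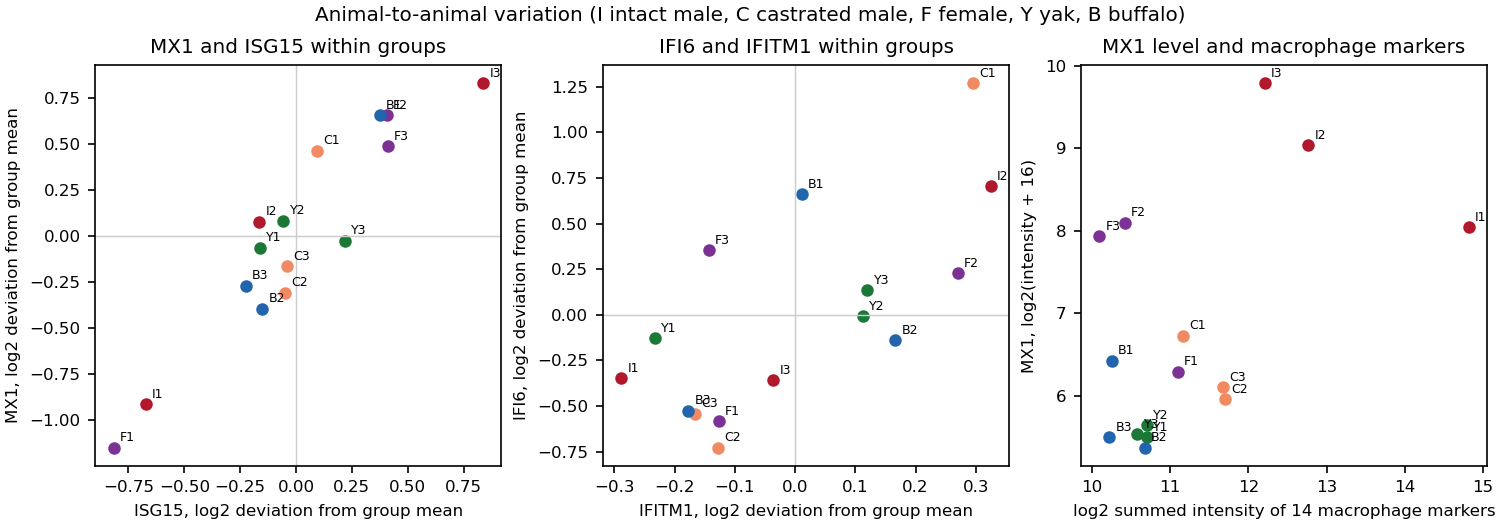
Left and middle: log2 deviations of single arrays from their group mean for MX1 against ISG15 (Pearson correlation 0.93) and IFI6 against IFITM1 (0.69). Right: MX1 level against the log2 summed intensity of 14 macrophage markers, where intact male 1 (I1) has the highest sum and the lowest MX1 of the intact males.

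The study also set cattle beside yak and buffalo. MX1 was lower in yak than in cattle, averaging 31.3 ± 2.51 against 263 over the 9 cattle (log2 fold change -1.99, SE 0.39, limma adjusted p = 0.00228). IFI6, at 85.1 ± 9.25 in yak, had a log2 fold change of -1.89 (SE 0.39, limma adjusted p = 0.00314). ISG15, at 82.7 ± 13.7, fell by 1.09 on the log2 scale (SE 0.29, limma adjusted p = 0.0133), and IFITM1 did not pass (-0.30, 95% interval -0.63 to 0.04, limma adjusted p = 0.173). The 3 calls of 4 stood against 15.9% of all probe sets tested that were called lower in yak. Yak lay wholly below cattle for IFI6 and MX1, against 10.4% of probe sets tested. MX1, with a yak mean log2 value of 5.56, was among the 4 only through the high cattle groups. The members were also chosen with earlier results known, so these counts are a description. With no limit on brightness MX1 also passed (limma adjusted p = 0.0024).

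The gaps were smaller against castrated males and females alone. MX1 stayed lower in yak in that fit (log2 fold change -1.29, limma adjusted p = 0.0219), whereas IFI6 (-0.90, adjusted p = 0.121) and ISG15 (-0.64, adjusted p = 0.0719) no longer passed and IFITM1 turned to 0.0086. ISG15 also lost its call without yak 1 or yak 2 (limma adjusted p = 0.0699 and 0.0578).

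Buffalo, too, had less MX1 than cattle, at 41.6 ± 24.7 (log2 fold change -1.79, SE 0.39, limma adjusted p = 0.00180). IFI6, at 151 ± 72.8, had a log2 fold change of -1.25 (SE 0.39, limma adjusted p = 0.0161). ISG15 (-0.20, 95% interval -0.83 to 0.42) and IFITM1 (0.15, interval -0.19 to 0.49) did not pass. The 2 calls stood against 28.4% of all probe sets tested that were called lower in buffalo, and 0 of the 4 lay wholly below cattle, against 18.3%. These counts too are a description, since MX1 had a buffalo mean log2 value of 5.77, below the limit. With no limit on brightness MX1 also passed (limma adjusted p = 0.00169). Without the intact males in the cattle mean, MX1 stayed lower (-1.09, limma adjusted p = 0.0249), IFI6 did not pass (-0.26, adjusted p = 0.615), ISG15 turned to 0.25 (adjusted p = 0.413) and IFITM1 rose by 0.46 (adjusted p = 0.0250). IFI6 also lost its call without buffalo 2 or buffalo 3 (adjusted p = 0.0616 and 0.0978). The yak and buffalo contrasts share the cattle arrays.

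Buffalo and yak were not separated in limma by any of the 4, while 42.2% of all probe sets tested differed. ISG15 was nearest, higher in buffalo by 0.89 (95% interval 0.12 to 1.66, limma adjusted p = 0.0597), with IFITM1 at 0.45 (interval 0.03 to 0.86, adjusted p = 0.0767). Both had an unadjusted p under 0.05, as 24.3% of probe sets did in that direction, and all 3 buffalo lay above all 3 yak for both, as for 26.7%. IFI6 (0.64, interval -0.38 to 1.67) and MX1 (0.20, interval -0.82 to 1.23) overlapped, each with buffalo 1 as the highest of the 6 animals. Without intact male 1, intact male 3 or female 1 in the fit, ISG15 passed (adjusted p = 0.0341, 0.0229 and 0.0272).

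The rest of the interferon pathway was read from lists by role, each gene by its brightest probe set. The interferons themselves could not be tested: 4 of 17 had a probe set and 0 were bright enough. IFNB1 read 15.7 to 36.2 and IFNG 7.75 to 16.8 over the 15 arrays. Of the other genes, 50 beyond the members were tested. In castrated against intact males 1 rose (0.625% of all probe sets did), 1 fell (0.84% of all) and 20 were lower at an unadjusted p under 0.05 (11.2% of all). The median log2 fold change was -0.27 against 0.00 for all probe sets tested. In females against intact males 1 rose (2.12% of all), 4 fell (3.37% of all) and 21 were lower at an unadjusted p under 0.05 (14.5% of all). The median was -0.26 against 0.01. Between females and castrated males 0 passed in limma, with 1 higher and 2 lower at an unadjusted p under 0.05 (3.98% and 3.57% of all). The first count was 1 without intact male 1 or 2, 5 without intact male 3, 4 without female 1 and 0 without any single castrated male. The second was 12 without intact male 3, 3 without intact male 1, 2 without intact male 2, castrated male 2 or 3, or female 1, and 1 without female 2 or 3.

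**Figure D4:**
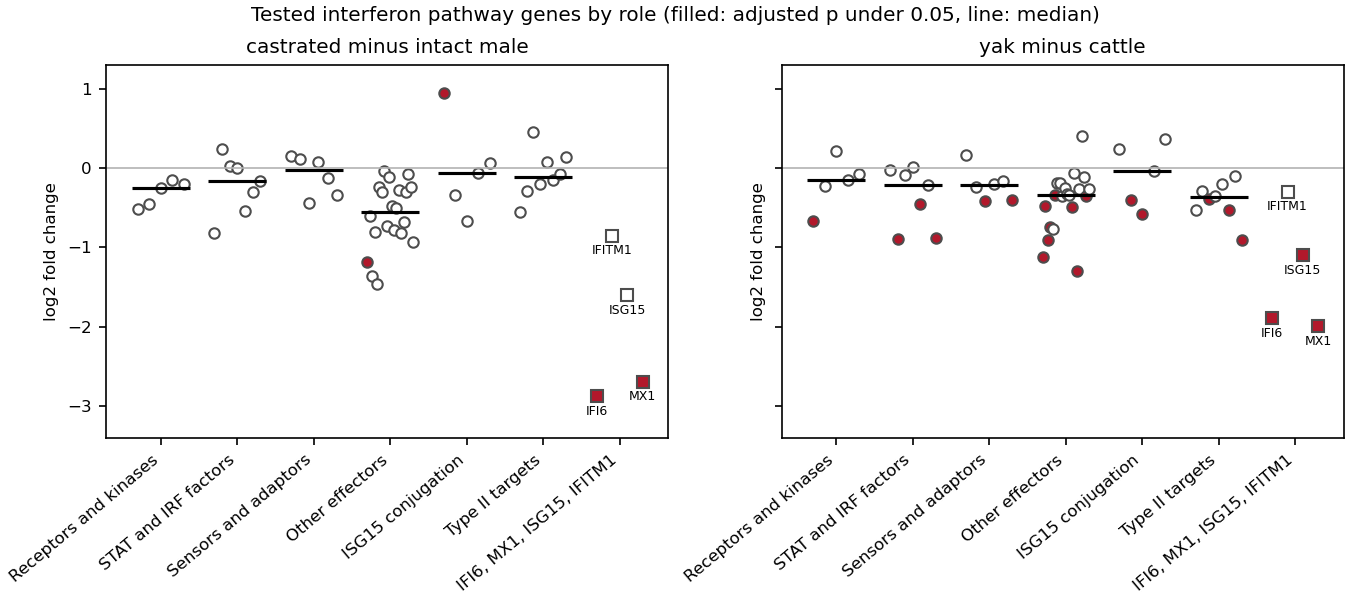
Log2 fold changes of tested interferon pathway genes by role, castrated minus intact males (left) and yak minus cattle (right), with the 4 tested members at the right of each panel. Filled points passed at an adjusted p under 0.05 and lines are list medians. Effectors have a median of -0.55 on the left and -0.34 on the right.

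Among 5 tested receptors, kinases and their inhibitors, limma called 0 within cattle, and in each contrast with intact males 3 were lower before adjustment (p under 0.05). Over all probe sets tested, 11.2% in castrated males and 14.5% in females were lower before adjustment. Against cattle, 15.9% were called lower and 13.2% higher in yak, and 28.4% lower and 23% higher in buffalo. The counts by role are a description, to be read beside these shares. For the contrasts with intact males, no share is given of probe sets higher before adjustment. Counts of genes higher in that way therefore cannot be weighed. IFNAR2, a chain of the type I receptor, was lower in yak than in cattle (-0.66, SE 0.15, limma adjusted p = 0.00636) and in buffalo (-1.19, SE 0.15). IL10RB, a chain of the type III receptor, was higher in buffalo than in cattle (1.22, SE 0.18) and than in yak (1.00, SE 0.22). Of 7 STAT and IRF factors, 0 passed in castrated males and 1 in females: IRF3, which switches on interferon genes after viral sensing, fell (log2 fold change -1.14, SE 0.24, limma adjusted p = 0.0331), a call lost without intact male 2, castrated male 2 or 3, or any single female. In yak 3 of the 7 were lower, IRF5 (-0.90, SE 0.17), STAT3 (-0.88, SE 0.17) and IRF9 (-0.45, SE 0.14), the last not without yak 1 or 3 nor against castrated males and females alone. In buffalo 3 were higher than in cattle, IRF5 (0.76, SE 0.17), STAT2 (0.59, SE 0.15) and IRF8 (0.18, SE 0.07). IRF8 kept its call only in the fits without intact male 1 or 3, castrated male 1, or yak 1 or 3. Of 6 sensors and adaptors, limma called 0 within cattle, with 1 lower in castrated males and 1 higher and 2 lower in females at an unadjusted p under 0.05 against intact males. In yak 2 were lower, MYD88 at -0.41 (lost without any single yak) and TRIM25 at -0.41 (lost without castrated male 2, female 1, or yak 1 or 2), and neither passed against castrated males and females alone. In buffalo the kinase IKBKE was higher than in cattle, at 0.48.

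Of 20 other effectors, 1 fell in castrated males and 3 in females (0.84% and 3.37% of all probe sets tested). At an unadjusted p under 0.05 in limma, 12 and 11 were lower (11.2% and 14.5% of all). DTX3L, a ubiquitin ligase that acts with PARP9, read 303, 205 and 326 in intact males. Castrated males had 107, 114 and 113 (log2 fold change -1.19, SE 0.19, limma adjusted p = 0.0218). It read 117, 177 and 156 in females (-0.82, SE 0.19, limma adjusted p = 0.0405). The first call was lost without any single castrated male, and the second kept only without intact male 2 or 3. IFI16, a nuclear DNA sensor, fell in females (-2.09, SE 0.28, limma adjusted p = 0.0108), as did IFI30, a lysosomal thiol reductase of antigen processing that macrophages make (-2.36, SE 0.43, limma adjusted p = 0.0243). IFI16 passed in all 9 fits that left out 1 array, and IFI30 did not without intact male 2 or any single female. In yak 8 effectors were lower and 0 higher than in cattle (15.9% and 13.2% of all). Among the 8 were DTX3L at -1.13 (SE 0.15), IFI16 at -0.91 (SE 0.19), IFI27 at -0.74 (SE 0.18) and IFI35 at -0.34 (SE 0.08). IFI16 did not pass against castrated males and females alone (-0.34), nor IFI35 without yak 1. In buffalo 9 were lower than in cattle (28.4% of all), with IFI16 at -2.22 (SE 0.19) and IFIT5, which binds viral RNA, at -0.94 (SE 0.13). Another 2 were higher (23% of all), PML at 0.26 (lost without buffalo 1 or 2) and IFI44L at 0.35. Against yak, buffalo had 9 higher (19.5% of all), among them DTX3L (1.16, SE 0.19) and IFI27 (0.92, SE 0.22). It had 2 lower (22.7% of all), IFI16 (-1.31, SE 0.23) and IFIT5 (-0.59, SE 0.16).

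Of 5 tested genes of ISG15 attachment and removal, which include TRIM25 again, the ligase ARIH1 was the only 1 to pass within cattle. It rose by 0.95 in castrated males (SE 0.16, limma adjusted p = 0.0326) and by 0.78 in females (SE 0.16, limma adjusted p = 0.0346), with 295, 342 and 331 in intact males and 445 to 673 in the other cattle. The first call was lost without intact male 1 or 2, any single castrated male, or female 3, and the second without intact male 1 or 2, castrated male 2 or 3, or female 2 or 3. UBA7 read 151, 218 and 260 in intact males and 107 to 172 in the other cattle, and did not pass (-0.67 in castrated males, limma adjusted p = 0.128, and -0.50 in females, adjusted p = 0.153). It was lower in yak than in cattle (-0.58, SE 0.15, limma adjusted p = 0.0105) and in buffalo (-0.44, SE 0.15, limma adjusted p = 0.0228), the former not without yak 1 and the latter not without buffalo 2 or 3 nor against castrated males and females alone. USP18, the protease that removes ISG15, was higher in buffalo than in cattle (0.95, SE 0.14) and than in yak (0.59, SE 0.17, lost without yak 2 or buffalo 2). Of 8 targets of type II interferon, limma called 0 within cattle. At an unadjusted p under 0.05, 1 was higher and 1 lower in castrated than in intact males (11.2% of all probe sets were lower). In females 0 were (14.5% of all probe sets were lower). The share higher is not given here. In yak 3 were lower (15.9% of all probe sets were), WARS1 (-0.90, SE 0.11), PSMB10 (-0.39, SE 0.09) and TAP1 (-0.53, SE 0.19). TAP1 kept its call only in the fits without intact male 3, castrated male 1 or female 1. In buffalo PSMB8 (-1.01, SE 0.14) and PSMB9 (-0.36, SE 0.10, lost without buffalo 3), subunits of the immunoproteasome, were lower and WARS1 was higher (0.42, SE 0.11).

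Over all roles, 18 of the 50 were lower in yak than in cattle and 0 were higher (15.9% and 13.2% of all probe sets tested). Their median was -0.28 against -0.02 for all probe sets tested. The count was 9 without yak 1 (8 lower) and 11, all lower, against castrated males and females alone. In buffalo 14 of the 50 were lower and 11 higher than in cattle, near the shares of all probe sets tested (28.4% lower and 23% higher). The median was 0.03 against -0.03, and the total was 14 without buffalo 2 or buffalo 3. Against yak, 21 were higher and 4 lower in buffalo (19.5% and 22.7% of all), with a median of 0.24 against 0.01, and the total was 15 without yak 2.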

How the data were processed

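The authors deposited 1 table of linear intensity values for 24128 probe sets on 15 Affymetrix bovine arrays. Per the labels' protocols, total RNA was extracted with Trizol and 6 µg was made into biotin-labelled cRNA. How the scans were summarised and normalised is not given in the labels used here. Probe sets were named from the platform annotation, which gave 1 symbol to 13318 and several to 86; probe sets it does not list are unnamed here. Matching to the RefSeq gene table changed 0 symbols.

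Here 112 control probe sets were set aside, 16 was added before log2, and probe sets at or below the 40th percentile of the mean (6.42) were not tested. The test was limma 3.58.1 under R 4.3.3, with empirical Bayes and a mean trend. Cattle contrasts used 9 arrays and species contrasts 15, the 3 cattle groups having equal weight. The code was tested on simulated data. With 3 arrays against 3, an exact permutation test cannot go below 0.1.

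The members and lists were chosen with earlier results of these data known. Genes named beyond the members were up to 4 called per list and contrast, with the smallest p, and the 3 nearest to each member. RSAD2, EPSTI1 and IRF9, genes named to complete a small count, and those set beside the macrophage sum, were chosen after their values were seen. Alternatives were scaling, pseudocount, filter, trend, array weights, arrays in the fit, the replicate block and leaving out single arrays.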

Additional observations from a re-analysis of the deposited data

How the results depend on the processing

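Direction was followed for the 4 tested members and for up to 4 called pathway genes per list and contrast. Among these, no alternative turned the direction of a called difference. Other called genes were not followed. Between castrated and intact males 2 of the 4 tested members were called. That count was 1 with no limit on brightness (6 probe sets tested), 1 with the limit at the 60th percentile (3 tested, without MX1), 1 without the mean trend, 4 with array weights (ISG15 and IFITM1 added), 4 with all 15 arrays in the fit (the same pair added) and 0 with the replicate block. The pathway count of 2 became 22, 11 and 1 with array weights, 15 arrays and the block. Between females and intact males the members called rose from 2 to 4 with array weights, and the pathway count from 5 to 24 (weights) and 13 (15 arrays). The test for any cattle difference called 4, 4 and 0 members with weights, 15 arrays and the block, against 1. The weights themselves ran from 0.216 for intact male 1 to 8.05 for intact male 2, and their estimation stopped before it converged. For yak minus cattle, the pathway count of 18 became 31 with weights. Leaving out all intact males gave 1 member and 11 pathway genes. For buffalo minus cattle 1 member passed at the 60th percentile, and for buffalo minus yak 1 passed instead of 0 after quantile normalisation, with a pseudocount of 1, with weights and without intact males.

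Replicate numbers are shared by the groups, but same-numbered cattle arrays correlated at -0.12 to 0.14, with 3 of 9 pairs over 0.1, so the numbers do not show a pairing. With the block, IFI6 and MX1 in castrated males had adjusted p of 0.0755 and 0.0620. Differences that were not called changed sign 7 times: IFI6 in females minus castrated males (0.25 with weights, and without castrated male 1 or female 1; range -0.55 to 0.45 over the fits that left out 1 array), IFITM1 there (without castrated male 1; range -0.26 to 0.022), IFITM1 in yak and ISG15 in buffalo minus cattle without intact males (0.0086 and 0.25), and MX1 in buffalo minus yak (without buffalo 1; range -0.13 to 0.40). The cause of these changes was not tested. Leaving out 1 array gave 0 to 2 members for castrated and for female minus intact males, 0 to 0 for female minus castrated male, 2 to 3 for yak and 1 to 2 for buffalo minus cattle, 0 to 1 for buffalo minus yak and 0 to 2 for any cattle difference. The pathway counts were then 0 to 5, 1 to 12, 0 to 0, 9 to 21, 14 to 25 and 15 to 25 for the 6 contrasts. Brightness limits MX2 and the dimmer IFITM1 probe set, for which no difference can be read with confidence.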
